A study of Homo sapiens with 4 samples.

Results

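The miR-30 family was followed in small RNA libraries of H661, a long-established cell line from a human large cell carcinoma of the lung. Its members were taken by name: every entry of the count table called miR-30a, miR-30b, miR-30c, miR-30d or miR-30e, from either arm of the hairpin, which gave 11 of 826 mature microRNAs (miRNAs). The cells, for which the labels name no genetic change, received for 8 h DMSO (dimethyl sulfoxide, the solvent) or 2.5 µM entinostat, a drug of the benzamide type that blocks class I histone deacetylases. Each treatment had 2 libraries. The design asks how miRNA abundance differed between entinostat and DMSO. No label says that the replicates came from separate cultures, so every p-value rests on a spread between libraries that may be technical.

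A miRNA hairpin is cut by Drosha and Dicer into a short duplex, and usually the strand from 1 arm, the guide, is loaded into Argonaute while the other, the passenger, is lost. Bases 2 to 8 of the loaded strand, the seed, choose the messenger RNAs that are repressed, so miRNAs that share a seed share most of their predicted targets. In miR-30 the 5p arm is the usual guide. The family is widely expressed and is known in lung and other epithelia for restraining the epithelial-mesenchymal transition, the switch of epithelial cells to a motile state, through targets such as SNAI1 and vimentin, and for limiting autophagy through BECN1.

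The sequences below are shown because the family is defined by its seed and because neighbouring members differ by so little. Matching by name in the RefSeq table (GRCh38.p14) gave a mature sequence for 7 of the 11 members. Each is written 5′ to 3′ with the seed in capitals, the 5p arms before the 3p arms.
hsa-miR-30a-5p: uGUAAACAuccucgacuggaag
hsa-miR-30c-5p: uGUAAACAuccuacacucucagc
hsa-miR-30e-5p: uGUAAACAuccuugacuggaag
hsa-miR-30a-3p: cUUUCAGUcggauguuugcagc
hsa-miR-30e-3p: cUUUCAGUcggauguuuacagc
hsa-miR-30c-1-3p: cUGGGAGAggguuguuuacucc
hsa-miR-30c-2-3p: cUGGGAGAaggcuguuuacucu

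The 3 printed 5p arms carried the seed GUAAACA. Counted from 1 at the 5′ end, miR-30a-5p and miR-30e-5p differed by the single substitution C13U, and miR-30c-5p differed from either at 5 of 22 compared bases, all of them past the seed. The printed 3p arms fell into 2 other seed groups. UUUCAGU was shared by miR-30a-3p and miR-30e-3p, which differed by the single substitution G18A, and UGGGAGA by miR-30c-1-3p and miR-30c-2-3p, which differed at 3 of 22 bases. Of the 729 counted names with a sequence in that table, 0 outside the family had any of these 3 seeds. The rule by which the authors divided reads between near-identical miRNAs is not given in the sources used here, so miR-30e, with 1 base between each arm and the far more abundant miR-30a arm, is uncertain singly.

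Members of the family come from 6 hairpins in 3 clusters. In the gene models of GENCODE 29 (GRCh38; the authors may have used others), MIR30A (chromosome 6, 71403551 to 71403621, minus strand) and MIR30C2 (chromosome 6, 71376960 to 71377031, minus strand) lie 26519 bases apart in introns of the long non-coding RNA genes LINC00472 and AL136164.2. MIR30E (chromosome 1, 40754355 to 40754446, plus strand) and MIR30C1 (chromosome 1, 40757284 to 40757372, plus strand) lie 2837 bases apart in an intron of NFYC, which encodes a subunit of the CCAAT-binding factor NF-Y. The hairpins of the third cluster, MIR30B and MIR30D, lie 4268 bases apart, outside any annotated gene.

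The hairpins of miR-30c are printed because both release an identical 5p arm, so only their 3p arms tell them apart. Arms are in capitals, and the sequences run 5′ to 3′.
MIR30C1: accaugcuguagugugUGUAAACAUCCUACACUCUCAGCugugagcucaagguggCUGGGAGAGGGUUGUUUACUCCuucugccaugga
MIR30C2: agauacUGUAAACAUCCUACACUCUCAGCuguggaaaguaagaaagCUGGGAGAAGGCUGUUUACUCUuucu
For this reason miR-30c-5p was kept apart from the clusters in every sum, and miR-30c-1-3p and miR-30c-2-3p were counted with their own cluster.

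Totals ran from 547875 to 938559 miRNA counts per library, and a count of 0 allowed 3.20 to 5.48 counts per 1000000 counts of the library (CPM). Libraries of 1 treatment lay farther apart than sampling noise, at a chi-square per degree of freedom of 5.93 for DMSO and 7.51 for entinostat over all miRNAs with 10 or more counts, and of 10.4 and 11.9 over the 10 miR-30 members with that many. At an equal relative spread this measure rises with the count, so the members' values do not show that they varied more than other miRNAs. Lists of miRNAs typical of epithelium, mesenchyme, blood, muscle, liver and neurons were checked for other cells. The epithelial list summed to between 41.0 and 76.7 CPM, so those of its miRNAs that were listed in the count table were rare in this carcinoma line. That table holds no entry for miR-200a, miR-141 and miR-429, which is not a measured count of 0. Mesenchymal miRNAs summed to 72.5 and 94.4 CPM with DMSO and 115.0 and 119.5 CPM with entinostat, with no counts listed for miR-214. Blood miRNAs summed to 191.6 to 243.0 CPM, of which miR-486-5p made up 99.2%, with no entry for miR-451a, miR-144, miR-223 and miR-142. The muscle and liver lists reached at most 12.8 and 5.33 CPM. The neuronal list reached 7020 to 8269 CPM through miR-128-3p and miR-9, with 2 counts of miR-124 in all. The part of these in any difference below was not tested.

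The miR-30 family held a large share of the counts, and its total differed little between treatments. It held 10.7% of all counts in DMSO replicate 1 (exact Clopper-Pearson 95% interval 10.6 to 10.7%) and 10.4% in DMSO replicate 2 (10.4 to 10.5%). With entinostat it held 10.8% (10.7 to 10.8%) in replicate 1 and 10.6% (10.6 to 10.7%) in replicate 2. The means were 10.5 ± 0.162% and 10.7 ± 0.0797% (SD, n = 2), a log2 ratio of 0.02, and the libraries of the treatments overlapped. These intervals cover counting error only, since the labels name no molecular identifier, and adapter ligation can favour some sequences over others, which sets shares of counts apart from shares of molecules. The scaling uses no added reference RNA, so it cannot show a change of all miRNAs together. No test was made on this sum, because the members were chosen with results known.

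Among the guides, miR-30c-5p and miR-30a-5p made up most of the family. Levels here are CPM scaled with TMM factors (trimmed mean of M-values), and fold changes are entinostat over DMSO from the edgeR quasi-likelihood test, adjusted over all 401 tested miRNAs. The level of miR-30c-5p, known for targeting connective tissue growth factor in the heart, was 48656 and 46155 CPM with DMSO and 46470 and 43588 CPM with entinostat. It ranked 3 of 826 by mean level, and its treatments overlapped, with the lowest value in entinostat replicate 2. Its log2 fold change was -0.07 (SE 0.07, 95% interval -0.24 to 0.09, edgeR adjusted p = 0.777).

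The level of miR-30a-5p, the member best known for repressing BECN1, was 30149 and 29555 CPM with DMSO and 31983 and 33134 CPM with entinostat. Here the entinostat libraries both lay above the DMSO libraries, and miR-30a-5p ranked 5. The log2 fold change was 0.13 (SE 0.07, 95% interval -0.03 to 0.28, edgeR adjusted p = 0.595), which did not pass the threshold of 0.05. A change of more than 1.22-fold upward lay outside that interval.

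The level of miR-30d-5p, studied in melanoma for its target GALNT7, was 12283 and 11503 CPM with DMSO and 11542 and 11806 CPM with entinostat. Both entinostat values lay between the DMSO values, and the log2 fold change was -0.03 (95% interval -0.20 to 0.15). The remaining guides were rare. For miR-30e-5p, a regulator of the SUMO-conjugating enzyme UBC9, the levels were 666.9 and 574.5 CPM with DMSO and 630.4 and 588.4 CPM with entinostat, again with both entinostat values inside the DMSO range (log2 fold change -0.04, -0.31 to 0.24). For miR-30b-5p, cut from the same cluster as miR-30d, they were 111.1 and 126.3 CPM against 128.7 and 159.3 CPM. Its treatments did not overlap, by a margin of a few CPM, and its log2 fold change was 0.30 (SE 0.18, 95% interval -0.12 to 0.72, edgeR adjusted p = 0.635).

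**Figure D1:**
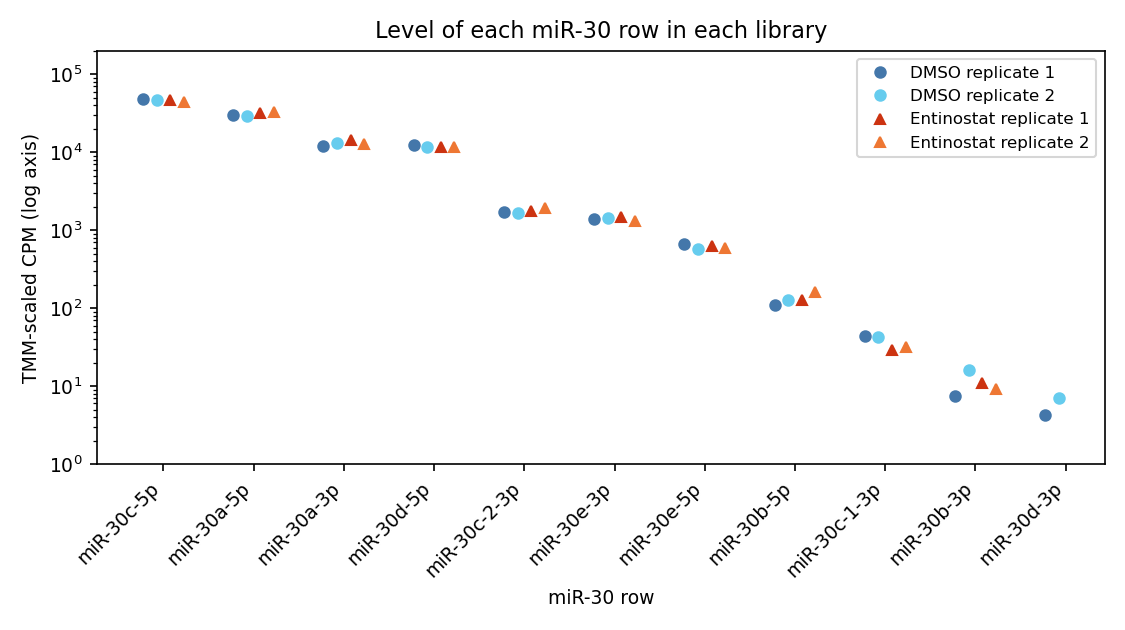
Level of the 11 miR-30 members (x axis) in TMM-scaled CPM (log y axis), 1 point per library, circles for DMSO and triangles for entinostat. The members span from 48656 CPM for miR-30c-5p to single CPM for miR-30d-3p, whose entinostat libraries had 0 counts and are not drawn, and the 4 libraries of the abundant members lie close together.

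The 3p arms, the usual passengers, were not all rare. The level of miR-30a-3p was 11924 and 13123 CPM with DMSO and 14250 and 12910 CPM with entinostat, close to that of the guide miR-30d-5p. In the order of levels, miR-30a-3p and miR-30d-5p were the only neighbours whose DMSO libraries overlapped, and with entinostat no neighbours did. The log2 fold change of miR-30a-3p was 0.12 (95% interval -0.08 to 0.32), and its treatments overlapped. The level of miR-30c-2-3p, known for repressing the stress factor XBP1, was 1712 and 1640 CPM with DMSO and 1766 and 1951 CPM with entinostat, which did not overlap (log2 fold change 0.15, -0.07 to 0.37, edgeR adjusted p = 0.638). Most of that gap lay in entinostat replicate 2.

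The level of miR-30e-3p, known for targeting the NF-kB inhibitor NFKBIA in glioma, was 1387 and 1446 CPM with DMSO and 1467 and 1298 CPM with entinostat. The entinostat libraries lay on either side of the DMSO libraries (log2 fold change -0.04, -0.27 to 0.19). The level of miR-30c-1-3p was 43.8 and 42.7 CPM with DMSO and 29.4 and 31.6 CPM with entinostat, from 41 and 24 counts against 16 and 24. Both entinostat libraries lay below both DMSO libraries. Its log2 fold change of -0.50 had the largest size among the tested members, but the SE was 0.29 and the 95% interval ran from -1.17 to 0.17 (edgeR adjusted p = 0.635). At these counts a fall to 0.445-fold and a rise to 1.13-fold both lie within the interval.

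Counts of 2 further 3p arms were too low for the test. The counts of miR-30b-3p were 7 and 9 with DMSO and 6 and 7 with entinostat. The counts of miR-30d-3p were 4 and 4 with DMSO and 0 and 0 with entinostat, where a count of 0 allows up to 3 counts per library, so a difference of this arm was not detectable at this depth. When all miRNAs were tested with no filter on low counts, edgeR gave an adjusted p of 0.974 for miR-30b-3p and 0.861 for miR-30d-3p.

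No member of the family passed the test. Of the 9 members that passed the filter on low counts, 0 had an edgeR adjusted p under 0.05, as did 0 of all 401 tested miRNAs (0%). At an unadjusted p under 0.05 there were 0 members, against 27 of all tested (6.73%). DESeq2 and limma-voom also called 0 members. For 4 of the 9 the treatments did not overlap. They were miR-30a-5p, miR-30b-5p and miR-30c-2-3p on the higher side and miR-30c-1-3p on the lower. Of all tested miRNAs, 40.6% did not overlap, 20.7% on the higher side and 20% on the lower. The members' count is thus near the background. Above 0 lay 4 of the 9 members and 51.9% of all tested, with a median log2 fold change of -0.03 for the members and 0.00466 for all tested.

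Intervals were narrow for the abundant members. For 7 of the 9 the 95% interval lay inside a 1.5-fold change in either direction, against 207 of the 401 tested. The intervals of miR-30c-1-3p and miR-30b-5p were wider, and these were the 2 members of lowest level among the tested. Upper quartile scaling moved the median of all tested miRNAs from 0.00466 to 0.12. With it 8 of 9 members lay above 0, with a median of 0.09, still under the median of all tested.

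**Figure D2:**
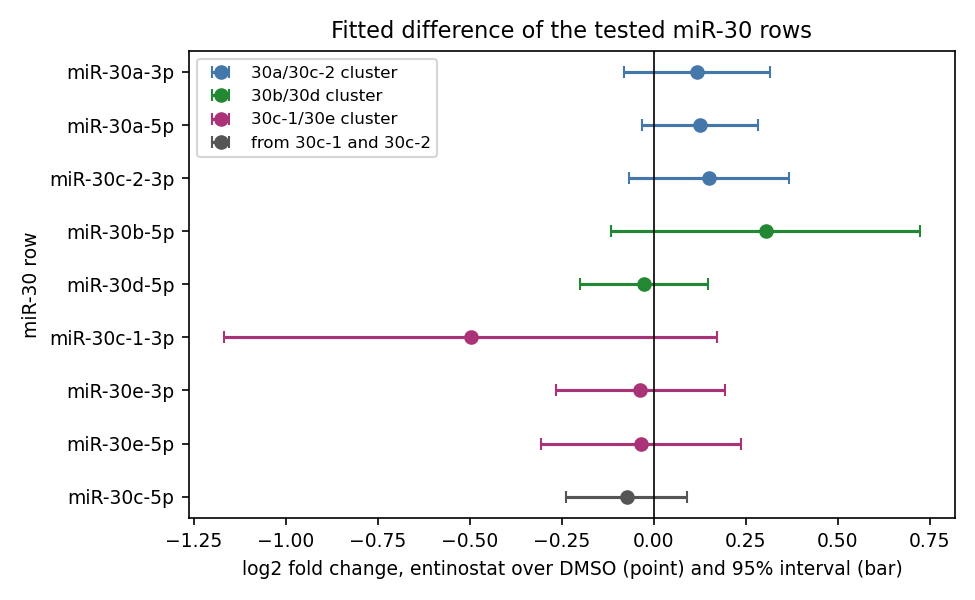
Log2 fold change of entinostat over DMSO (points, x axis) with 95% interval (bars) for the 9 tested miR-30 members (y axis), coloured by hairpin cluster. All 9 intervals include 0, the 3 members of the 30a/30c-2 cluster lie at 0.12 to 0.15, and the interval of miR-30c-1-3p runs from -1.17 to 0.17.

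Grouped by hairpin, the members of the 30a/30c-2 cluster lay slightly above 0, and those of the 30c-1/30e cluster at or below it. In the 30a/30c-2 cluster all 3 members had a log2 fold change above 0, from 0.12 to 0.15. Summed, their share of the counts was 4.37% and 4.44% in the DMSO libraries and 4.77% and 4.84% in the entinostat libraries. These sums did not overlap, and the means were 4.40 ± 0.0512% and 4.80 ± 0.0530% (SD, n = 2), a log2 ratio of 0.13. The 3 values come from 2 neighbouring hairpins and are not independent of each other.

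In the 30c-1/30e cluster all 3 members lay below 0, at -0.50 for miR-30c-1-3p and at -0.04, well within their standard errors of 0.10 and 0.12, for miR-30e-3p and miR-30e-5p. Both miR-30e arms turned positive with upper quartile factors (0.075 and 0.083) and without entinostat replicate 2 (0.052 and 0.014), so the lower side rested on miR-30c-1-3p. The cluster's share of the counts was 0.209% and 0.207% in the DMSO libraries and 0.211% and 0.193% in the entinostat libraries, and these sums overlapped. Its log2 ratio of -0.04 became 0.02 without entinostat replicate 2. Nearly all of this sum is miR-30e, with 41 of 1963 counts from miR-30c-1-3p in DMSO replicate 1. The unknown division of reads between miR-30a and miR-30e therefore limits it. The 30b/30d cluster, on chromosome 8, held 1.24% and 1.17% against 1.16% and 1.21%, which also overlapped, and miR-30d-5p supplied nearly all of it. For miR-30c-5p, which the clusters of chromosomes 1 and 6 both supply, the share was 4.85% and 4.62% with DMSO and 4.61% and 4.40% with entinostat, not overlapping on the unscaled totals, by a narrow margin, but overlapping after TMM scaling. Its log2 ratio was -0.07. No cluster sum was tested.

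**Figure D3:**
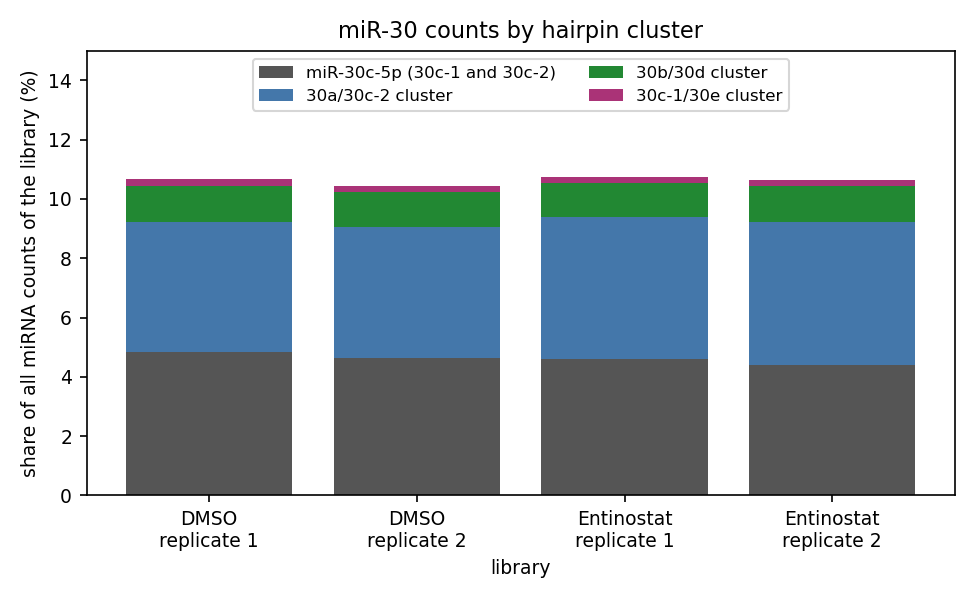
Share of all miRNA counts of a library (y axis, %) held by miR-30, stacked by hairpin cluster, with 1 bar per library and miR-30c-5p drawn apart because 2 hairpins supply it. The full bars reach 10.4 to 10.8%, and the 30a/30c-2 segment is 4.37% and 4.44% with DMSO against 4.77% and 4.84% with entinostat.

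Ratios of members within a library need no scaling between libraries. Of the 5p counts, miR-30a-5p made up 32.8% and 33.6% with DMSO and 35.2% and 37.1% with entinostat, while miR-30c-5p made up 53.0% and 52.5% against 51.2% and 48.8%. In both the treatments did not overlap, in opposite directions. As the largest parts of the same total, these shares are tied, so a rise of either goes with a fall of the other. They and their ratio are not separate observations, and the TMM-scaled level of miR-30c-5p overlapped between treatments. The ratio of miR-30a-5p to miR-30c-5p was accordingly 0.620 and 0.640 with DMSO and 0.688 and 0.760 with entinostat. The share of miR-30d-5p ranged from 12.7% to 13.4%, and that of miR-30e-5p from 0.654% to 0.726%. The differences of their means, entinostat minus DMSO, were -0.256 and -0.0129 percentage points, and they became -2.03 and -0.104 when miR-30c-5p was left out of the 5p counts.

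Ratios within a cluster were mixed. The count of miR-30c-2-3p over that of its neighbour miR-30a-3p was 0.144 and 0.125 with DMSO and 0.124 and 0.151 with entinostat, which overlapped. In the 30b/30d cluster the treatments did not overlap, by a narrow margin. It lay between DMSO replicate 2 and entinostat replicate 1, with 71 and 70 counts of miR-30b-5p. The count of miR-30b-5p was 0.905% and 1.10% of that of miR-30d-5p with DMSO and 1.11% and 1.35% with entinostat, so the guides of this pair of neighbouring hairpins stood a mean of 91.4-fold apart in count. In the 30c-1/30e cluster the count of miR-30c-1-3p was 3.16% and 2.95% of that of miR-30e-3p with DMSO and 2.01% and 2.43% with entinostat, again with no overlap. The unknown division of reads between miR-30a-3p and miR-30e-3p limits this ratio too.

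The 3p arms of the miR-30c hairpins come from the clusters of chromosomes 1 and 6, but their ratio does not measure the clusters as wholes. It rests on 41 and 24 counts of miR-30c-1-3p with DMSO and 16 and 24 with entinostat. This arm also lay lower against miR-30e-3p of its own cluster, and the sum of that cluster overlapped between treatments. The count of miR-30c-1-3p was 2.56% and 2.60% of that of miR-30c-2-3p with DMSO and 1.66% and 1.62% with entinostat. As a share of both 30c 3p arms, miR-30c-1-3p made up 2.50% (exact Clopper-Pearson 95% interval 1.80 to 3.37%) and 2.54% (1.63 to 3.75%) with DMSO and 1.64% (0.939 to 2.65%) and 1.59% (1.02 to 2.36%) with entinostat. The intervals of the treatments overlapped, but each covers the counting error of 1 library, and their overlap is no test of a difference. These pairs were picked after their values were seen. Over all 36 pairs of tested members the ratio did not overlap between treatments in 18, and over all pairs of tested miRNAs this was so for 37.2%. Pairs share members, so these counts are not of independent items.

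**Figure D4:**
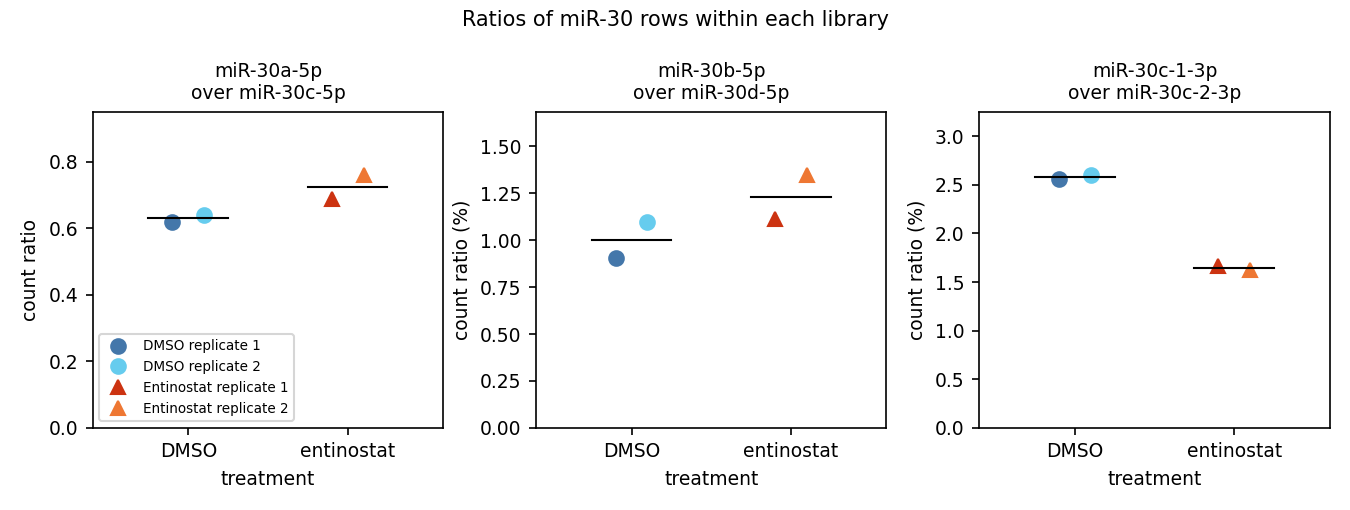
Count ratio of a pair of miR-30 members within each library (points, y axes from 0) by treatment (x axis), with the mean of 2 libraries as a line. The ratio of miR-30a-5p to miR-30c-5p is 0.620 and 0.640 with DMSO and 0.688 and 0.760 with entinostat, and that of miR-30c-1-3p to miR-30c-2-3p lies between 1.62% and 1.66% with entinostat against 2.56% and 2.60% with DMSO.

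The balance of the arms differed more between hairpins than between treatments. The 5p to 3p count ratio of miR-30a was 2.53 and 2.25 with DMSO and 2.24 and 2.57 with entinostat, so its passenger reached a sizeable fraction of its guide in every library. For miR-30e the ratio was 0.481 and 0.397 with DMSO and 0.430 and 0.453 with entinostat. The 3p arm of miR-30e was therefore the more abundant arm in all 4 libraries, although its 5p arm carries the family seed and differs from miR-30a-5p by C13U alone. The part that the division of reads between miR-30a and miR-30e may have in this order was not tested.

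The other hairpins were strongly biased to the 5p arm. For miR-30c, with both 3p arms summed, the ratio was 27.7 and 27.4 with DMSO and 25.9 and 22.0 with entinostat, which did not overlap. The log2 difference was -0.21. It ranged from -0.33, on leaving out entinostat replicate 1, to -0.09, on leaving out the other entinostat library. For miR-30b the 5p to 3p ratio was 14.9 and 7.89 against 11.7 and 17.3, on 6 to 9 counts of the 3p arm. For miR-30d it was 2873 and 1617 with DMSO, on 4 counts of the 3p arm in each library, and at least 2093 and 2990 with entinostat, taking 3 counts per library for a count of 0. Among 92 hairpin names with both arms tested, the arms differed by a median of 10.5-fold, and 26 (28.3%) had arms within 4-fold of each other. Both miR-30a, at 2.39-fold, and miR-30e, at 2.28-fold, belonged to these 26, with 15 and 11 of the 92 nearer to even.

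**Figure D5:**
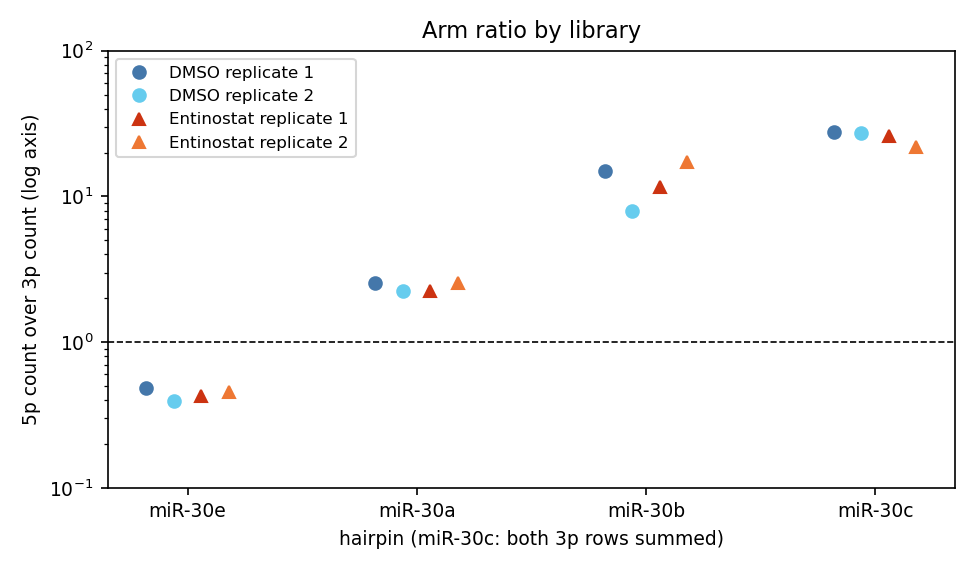
Ratio of the 5p count to the 3p count (log y axis) for 4 miR-30 hairpin names (x axis) in each library, with the dashed line at equal counts. All 4 libraries of miR-30e lie under the line, at 0.397 to 0.481, those of miR-30a lie at 2.24 to 2.57, and those of miR-30c at 22.0 to 27.7.

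The summed 5p level of the family was 91865 and 87914 CPM with DMSO and 90754 and 89276 CPM with entinostat. Of the 91 other tested miRNAs of 1000 CPM or more, those closest to this profile over the 4 libraries were miR-10a-5p, miR-423-3p and miR-28-3p. Their root mean square differences of centred log2 levels were 0.0199, 0.0220 and 0.0303, against a median of 0.0858 over the 91. All 3 differed little between treatments, with log2 fold changes of -0.00333, -0.04 and -0.04. These small values follow from the choice, since the miRNAs were picked for closeness to a summed profile that itself differed little.

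A list of other miRNAs known to act on the epithelial-mesenchymal transition was set beside miR-30. Of its 13 entries of the miR-200, miR-203, miR-205, miR-34 and miR-29 families, 5 could be tested, 0 passed, and 4 lay above 0. Of all 401 tested miRNAs, 0 passed and 51.9% lay above 0. The 95% interval of each of the 5 included 0. The most abundant of them, above miR-30e-5p and below miR-30e-3p, was miR-29a-3p, which also restrains collagen genes, whose DMSO mean was 726.9 ± 41.1 CPM and entinostat mean 832.0 ± 14.8 CPM (SD, n = 2), at a log2 fold change of 0.20 (95% interval -0.04 to 0.44). The others tested were miR-200c-3p at 0.57, miR-34c-5p at 0.37, miR-34b-3p at 0.36 and miR-203a-3p at -0.46 on the log2 fold change scale, each at no more than 131.6 CPM in any library.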

How the data were processed

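Small RNA from 4 H661 libraries was analysed, 2 with DMSO and 2 with entinostat. Per the labels' protocols, TRIzol extracts entered New England Biolabs small RNA reagents at 1 µg per library. The submitters' processing notes name bcl2fastq 2.18. How the authors aligned and counted reads, and on which annotation and build, is not given in the sources used here. The deposited counts are unscaled whole numbers for each mature miRNA. The deposited CPM are the authors' values, equal to the count over the column total, with no composition factor.

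All 826 miRNAs entered a single edgeR 4.0.16 fit (R 4.3.3), with TMM scaling, filterByExpr defaults (minimum count 10, minimum total 15), treatment as the only term, and the quasi-likelihood test with Benjamini-Hochberg adjustment over the 401 miRNAs tested. The test was checked on simulated data. Sums, shares and ratios over members were described without a test. Alternatives covered scaling, the low-count filter, the tool (DESeq2 1.42.0, limma 3.58.1), limma on log2(deposited CPM + 1) or log2(deposited CPM + 0.5), a replicate block, and each library left out. Groups came from the sample titles.

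All members are named, with the 3 miRNAs of 1000 CPM or more closest in profile and a list tied to the epithelial-mesenchymal transition. The members and lists were chosen with earlier results of these data known. Sums, intervals and plots were made in Python 3.11.15 (SciPy 1.17.1, pandas 2.3.3, matplotlib 3.10.9).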

Additional observations from a re-analysis of the deposited data

How the results depend on the processing

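Of the 9 tested members, 0 were called under any of the 16 other settings tried, where the lowest adjusted p was 0.356 for miR-30a-5p with upper quartile factors. Among all tested miRNAs the count of 0 held except with the edgeR likelihood ratio test, which called 4, and on leaving out entinostat replicate 1, where 6 were called. In fits without 1 library, whose lone partner is assumed to vary like the other group, the counts therefore ran from 0 to 6. The direction was kept under all 16 by miR-30a-5p (0.10 to 0.24), miR-30a-3p (0.04 to 0.23), miR-30b-5p (0.13 to 0.44), miR-30c-2-3p (0.07 to 0.26) and miR-30c-1-3p (-0.56 to -0.38). It turned with upper quartile factors for miR-30c-5p (0.038), miR-30d-5p (0.087), miR-30e-3p (0.075) and miR-30e-5p (0.083), while the median of all tested miRNAs moved up to 0.12. Leaving out each library gave -0.081 to 0.022 for miR-30d-5p and -0.14 to 0.084 for miR-30e-5p, whose highest values came without DMSO replicate 1, and -0.125 to 0.052 for miR-30e-3p, highest without entinostat replicate 2, which also turned miR-30e-5p (0.014). The cause was not tested. Members at an unadjusted p under 0.05 numbered 2 with upper quartile factors and 1 with the crossed pairing described below. Among all 401 tested miRNAs that number was 27 in the main fit, 44 with upper quartile factors and 32 with the crossed pairing. It was 45 with no filter and 11 with DESeq2, but both of these fits also took in miRNAs of low count, so their numbers are over a larger set.

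With the replicate number as a block, 0 members and 0 of all miRNAs were called. Deviations of same-numbered libraries from their group means had a correlation of -0.12 over 401 miRNAs and of -0.36 over the 97 of 1000 CPM or more, and a crossed pairing, added after seeing the data, also called 0. The numbers are not known to pair the libraries, and the block changed no call. When miR-30c-5p was left out of the 5p counts, the difference in share moved from -0.256 to -2.03 percentage points for miR-30d-5p and from -0.0129 to -0.104 for miR-30e-5p, since miR-30a-5p then makes up most of the total. Other denominators moved the sums, and an added 0.5 counts the arm ratios, by less than the spread between replicates. Leaving out a library turned the sign of the log2 ratio of the 5p sum (-0.024 to 0.033), the 30b/30d sum (-0.063 to 0.021) and the 30c-1/30e sum (-0.104 to 0.023), and of the arm ratio differences of miR-30a (-0.088 to 0.105), miR-30b (-0.065 to 0.848) and miR-30e (-0.123 to 0.152). Members under 100 CPM are limited by depth.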
